A study of Mus musculus with 21 samples.

Results

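The 10 nuclear receptor genes described here are the orphan receptors Nr4a1, Nr4a2 and Nr4a3, the vitamin D receptor gene Vdr, the thyroid hormone receptor genes Thra and Thrb, the glucocorticoid receptor gene Nr3c1, and the orphan receptors Nr2c1, Nr2c2 and Nr2f6. They were chosen by name, as the NR4A genes and further receptors that can pair with the retinoid X receptors (RXR) or repress through their partners, and all 10 are among the 28987 gene identifiers of the expression table. All 10 also passed the filter on low values in every comparison of levels. Thrb and Nr2f6 did so in some comparisons only through the groups where they were higher. The study sequenced bulk RNA of blood stem and progenitor cells from mouse bone marrow as 21 libraries, with 3 in each of 7 groups. The cells were long-term haematopoietic stem cells (LT-HSC, 15 libraries) and multipotent progenitors (MPP, 6 libraries, sorted as MPP3 and MPP4). Each library came from pooled animals, and no age is given in the labels.

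On GRCm38 the genes lie at chr15:101253902-101274795 (Nr4a1), chr2:57106830-57124003 (Nr4a2), chr4:48045078-48086447 (Nr4a3), chr15:97854427-97908296 (Vdr), chr11:98740776-98769006 (Thra), chr14:17659225-18040097 (Thrb), chr18:39410545-39519421 (Nr3c1), chr10:94147542-94197216 (Nr2c1), chr6:92091418-92173058 (Nr2c2) and chr8:71374118-71381967 (Nr2f6).

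Batch 1 held 4 groups. Floxed controls were written Rxrabfl/fl, without Cre, and knockouts VaviCre+Rxrabfl/fl, each as LT-HSC and as MPP with replicates 1 to 3. Batch 2 held LT-HSC of 3 groups. Its controls were Vav1Cre+WT (Cre controls, replicates 4 to 6), and they were set against Vav1Cre+Rxrabfl/fl (replicates 4 to 6) and Vav1Cre+Rxrabfl/fl Myclfl/+ (replicates 1 to 3), a group with a further floxed allele that the titles write as Mycl and the sample descriptions as Myc. It is called the Myc allele group here. Vav1 drives Cre through the whole blood system, so every cell type of the marrow that descends from the stem cell can carry the deletion. Cre was present in the controls of batch 2 and not in those of batch 1, so batch and control genotype cannot be told apart. Within batch 1 only the knockouts carried Cre. Loss of RXR and Cre itself thus cannot be told apart in any comparison of knockouts with floxed controls.

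NR4A receptors are immediate early genes. They are held at low levels and switched on within minutes by signals that act through cyclic AMP, calcium or antigen receptors, their ligand pocket is filled by side chains so that their abundance sets their activity, and in blood stem cells they are known for restraining division. Nur77 (Nr4a1) and Nurr1 (Nr4a2) can bind DNA as pairs with RXR, whereas Nor1 (Nr4a3) is not known to pair with it. The vitamin D receptor and the thyroid hormone receptors bind DNA mainly as pairs with RXR, the glucocorticoid receptor binds as a pair of itself, and TR2 and TR4 (Nr2c1, Nr2c2) and EAR2 (Nr2f6) act largely as repressors on related DNA motifs.

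The 3 Nr4a genes share a promoter rich in cyclic AMP response elements (CRE), through which the transcription factor CREB acts, and the upstream bases are shown because the knockout difference in MPP and the library that stands apart in batch 2 both concern this family. The sequences are the 250 bases before the RefSeq start site on GRCm38.p6, 5′ to 3′ on the strand of the gene, at chr15:101266596-101266845 (plus strand) for Nr4a1, chr2:57124004-57124253 (minus strand) for Nr4a2 and chr4:48045055-48045304 (plus strand) for Nr4a3. Capitals mark the CRE core, TGACG or its reverse complement CGTCA. The Nr4a1 window lies inside the gene's annotated span, before a start site downstream of the first, and most of the Nr4a3 window does too.
Nr4a1 promoter: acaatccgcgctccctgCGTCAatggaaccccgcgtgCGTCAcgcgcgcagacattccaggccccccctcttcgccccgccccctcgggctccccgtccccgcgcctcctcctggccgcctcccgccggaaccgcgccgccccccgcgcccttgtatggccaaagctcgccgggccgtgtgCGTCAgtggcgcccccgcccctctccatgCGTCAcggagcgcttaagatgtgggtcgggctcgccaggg
Nr4a2 promoter: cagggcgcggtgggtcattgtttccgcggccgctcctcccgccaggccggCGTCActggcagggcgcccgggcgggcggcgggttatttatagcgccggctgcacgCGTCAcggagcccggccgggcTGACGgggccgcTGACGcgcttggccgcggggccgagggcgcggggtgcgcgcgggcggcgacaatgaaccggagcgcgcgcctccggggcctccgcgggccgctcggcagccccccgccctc
Nr4a3 promoter: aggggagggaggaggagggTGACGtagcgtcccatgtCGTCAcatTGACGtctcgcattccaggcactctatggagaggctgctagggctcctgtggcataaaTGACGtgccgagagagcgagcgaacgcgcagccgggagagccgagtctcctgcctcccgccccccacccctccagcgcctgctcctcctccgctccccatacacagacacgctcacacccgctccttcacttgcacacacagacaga
Each of the 3 windows held 4 CRE cores. Counted from the start site, they began at -233, -213, -69 and -40 in Nr4a1, at -200, -144, -123 and -111 in Nr4a2, and at -231, -213, -205 and -147 in Nr4a3. Of 32851 RefSeq promoter windows of 300 bases, 20.8% held at least 1 CRE core on either strand and 76 (0.231%) held 4 or more. The full palindrome TGACGTCA, found in 1.79% of windows, was in none of the 3. The element that NR4A proteins themselves bind as single molecules, AAAGGTCA, was in 1.51% of windows and in no window of the 8 members searched. Thra had no promoter entry, and Nr3c1 was not searched. Of the other members, the windows of Nr2c1 and Nr2c2 and 1 of the 2 Thrb windows held 1 CRE core each, and those of Vdr and Nr2f6 held none. That Thrb window also held the nuclear receptor core motif AGGTCA once, a motif found in 16.3% of windows. All motifs were searched on both strands, a CRE core can lie within a full palindrome, and a match describes letters only.

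The labels were checked on the targeted genes and on markers. Rxra stood at 2.37 to 5.17 TPM (length-normalised transcript abundance) in floxed control LT-HSC and 2.88 to 3.38 TPM in knockout LT-HSC, and at 2.02 to 2.19 and 1.77 to 2.20 TPM in MPP, overlapping in both. Rxrb stood at 7.52 to 14.9 and 9.30 to 12.6 TPM in LT-HSC, overlapping, and at 15.8 to 18.8 and 9.55 to 13.6 TPM in MPP. These totals include exons outside the deletion and so check little. Reads joining exons around a skipped Rxra exon had a share of 0.938 in knockout LT-HSC 1, 1 and 0.5 in knockout MPP 1 and 3, and 0 to 0.1 in the controls, with no value in the other 3 knockouts of batch 1. It stood at 0, 0.0127 and 0 in the batch 2 libraries of the knockout genotype. At Rxra this goes against their label, so they are called labelled knockouts below. The share was 0.647, 0 and 1 in the Myc allele group, so its replicate 2 shares that limit. Rxrb totals stood at 14.5 to 16.0 TPM in Cre controls and 10.6 to 12.8 in labelled knockouts, without overlap and in the direction of their label. The Myc allele group lay lower still, at 6.40 to 8.88 TPM. Markers of LT-HSC summed to 203.5 to 620.5 TPM in LT-HSC and 95.01 to 139.0 TPM in MPP, and those of MPP to 28.5 to 130.3 and 961.7 to 1861 TPM. One identifier without a symbol, ENSMUSG00000089855, took 10.6% to 51.8% of the nominal per-million scale of TPM, the highest share being that of LT-HSC floxed control 2. Deposited TPM sums fell short of that scale. They ran from 691094 to 918942, lowest in Myc allele replicate 3, so shares of the summed TPM are higher. The number of reads behind a TPM is unknown. For this reason every comparison was repeated on libraries rescaled by size factors from the median of ratios, and such values are called rescaled. Fewer cells of a type and less RNA per cell cannot be told apart in these bulk samples.

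The NR4A genes had SDs over all libraries close to their means. TPM are per transcript length, so levels of genes can be set side by side, and Nr4a1 had the highest mean over the 21 libraries (70.2 ± 76.6 TPM, SD, n = 21), ahead of Nr4a2 (49.8 ± 48.2) and Nr2c2 (32.0 ± 7.81), while Nr4a3 stood at 8.17 ± 9.05 TPM. Nr4a1 was at 253, 64.9 and 107 TPM in floxed control LT-HSC 1 to 3, and at 152, 50.0 and 37.1 in knockout LT-HSC. In MPP it was at 135, 69.7 and 54.0 TPM in floxed controls and at 43.5, 27.4 and 13.6 in knockouts. The knockout MPP were all below the floxed control MPP, whereas the LT-HSC groups overlapped. In batch 2 it was at 20.2, 23.0 and 42.2 TPM in Cre controls, 20.4, 20.0 and 21.8 in labelled knockouts, and 20.2, 15.4 and 284 in the Myc allele group. One library, Myc allele replicate 3, thus had the highest Nr4a1 of all 21.

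Nr4a2 was at 78.5, 49.2 and 44.2 TPM in floxed control LT-HSC and at 106, 65.2 and 66.9 in knockout LT-HSC. In MPP it was at 48.2, 26.8 and 19.0 TPM in floxed controls and 18.9, 27.2 and 16.3 in knockouts, all 3 knockouts lying below every knockout LT-HSC library. Batch 2 had 17.8, 22.4 and 22.6 TPM in Cre controls, 19.6, 40.1 and 36.6 in labelled knockouts and 27.7, 58.7 and 233 in the Myc allele group, where replicate 3 again stood apart. Nr4a3 was the only family member higher in floxed control MPP, with 29.8, 24.7 and 18.6 TPM, than in floxed control LT-HSC, with 8.23, 4.83 and 7.59 TPM. Knockout MPP had 7.21, 4.64 and 2.58 TPM, below every floxed control MPP library and within or below the range of LT-HSC, whose knockouts had 9.62, 6.16 and 4.75 TPM. In batch 2 Nr4a3 was at 1.04, 1.54 and 1.28 TPM in Cre controls, 2.79, 5.11 and 2.05 in labelled knockouts, and 0.935, 0.402 and 27.8 in the Myc allele group. All 3 genes were lower in every Cre control than in every floxed control LT-HSC, a difference between batches as much as between control genotypes.

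**Figure D1:**
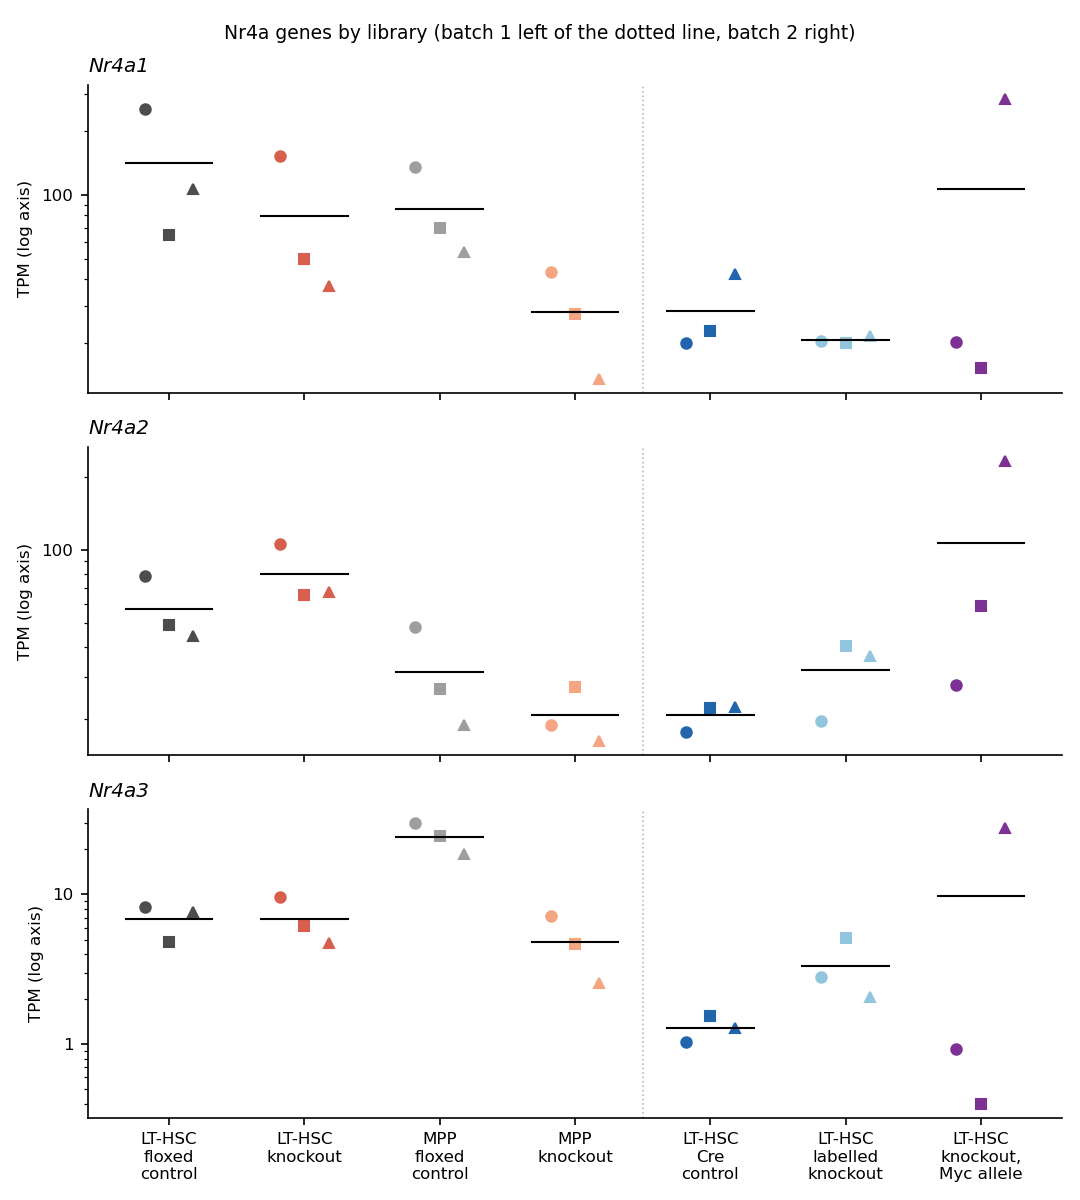
TPM of Nr4a1, Nr4a2 and Nr4a3 on a log axis, 1 point a library (circle, square and triangle for the lowest, middle and highest replicate number of a group) and a line at the mean of 3, with batch 1 left of the dotted line and batch 2 right of it. Nr4a3 in the 3 knockout MPP (2.58 to 7.21 TPM) lies below the 3 floxed control MPP (18.6 to 29.8 TPM), and Myc allele replicate 3 lies far above the other libraries of its group for all 3 genes.

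Knockout MPP were compared with floxed control MPP to ask which receptors differ between them, in Cre as well as RXR genotype. Nr4a3 fell, from 24.4 ± 5.59 to 4.81 ± 2.32 TPM (SD, n = 3 each), which is -2.18 in log2(TPM + 1), with a standard error (SE) of 0.30 and an adjusted p of 0.00488 (limma, Benjamini-Hochberg). Rescaled, the change was -2.24 (SE 0.33, adjusted p = 0.0102). It was the only one of the 10 members to pass, in a comparison where 0.323% of all 14839 genes passed (12 higher, 36 lower) and 0.526% rescaled. Leaving out any 1 library kept the deposited-scale call (log2 change -2.47 to -1.88, adjusted p = 0.00452 to 0.0394), while 4 of the 6 rescaled fits passed, the exceptions being those without MPP floxed control 1 (adjusted p = 0.0693) or 2 (0.0629). Nr4a1 had a log2 change of -1.61 (SE 0.55), from 86.3 ± 43.0 to 28.2 ± 14.9 TPM (SD, n = 3 each), and did not pass (limma adjusted p = 0.403, unadjusted 0.0105). Nr4a2 had -0.50 (SE 0.32, adjusted p = 0.984). The other 7 members had log2 changes from -0.03 (Nr3c1) to 0.36 (Nr2f6). Over the 10 members the median was 0.05, beside 0.08 over all genes.

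The genes that share the NR4A induction route were described from a list of 25 immediate early genes, CREB factors and their coactivators. In knockout MPP none of the 25 passed the limma test (12 at an unadjusted p under 0.05 and 16 rescaled, where all genes had 6.35% and 9.48%), and their median log2 change was -0.54 beside 0.08 over all genes (-0.61 and 0.01 rescaled). Among 19 chaperones and targets of the glucocorticoid receptor 1 passed, Nfkbia, which encodes the inhibitor that holds NF-kB in the cytoplasm. It fell from 85.4 to 26.8 TPM, a log2 change of -1.63 (SE 0.20, limma adjusted p = 0.00339, rescaled -1.70 with 2.6e-04). No gene passed in the lists of corepressors and coactivators (18 tested), other orphan and clock receptors (10 of 16 tested), RXR and its other partners (8 of 14), thyroid hormone handling (8 of 14) and vitamin D handling and targets (8 of 12), of which 0, 1, 3, 2 and 2 had an unadjusted limma p under 0.05. Markers of other cells moved with this comparison. The 6 neutrophil markers summed to 0.759 to 4.99 TPM in floxed control and 7.49 to 64.5 TPM in knockout MPP, and the 6 monocyte markers to 77.5 to 105.5 and 129.0 to 194.2 TPM, with 0 of 4 and 1 of 4 tested genes past the limma test (3 and 3 unadjusted), and no marker of either list was at 0 in all libraries of a group. Of 5 tested mast cell, basophil and eosinophil markers 1 rose, Fcer1a (1.18, adjusted p = 0.039, rescaled 0.0319). None of the 5 MPP markers passed (1 unadjusted, 2 rescaled), and they did not move one way. Flt3 (88.2 to 122.5 TPM in floxed control and 67.7 to 82.1 in knockout MPP) and Dntt (142.7 to 216.2 and 100.3 to 132.8 TPM), chosen after their values were seen, were lower without overlap. Mean Cd48 (84.9 and 105.7 TPM) and Mpo (746.1 and 1177 TPM) were higher in knockout MPP with overlap, and Cd34 was level (163.8 and 165.3 TPM). Sums of the 5 overlapped, at 961.7 to 1838 and 1333 to 1861 TPM. The part of these cells in the Nr4a3 result was not tested.

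In LT-HSC of batch 1, 4 members rose on deposited TPM: Vdr, Thra, Nr2c1 and Nr2c2. In this comparison 45.2% of all genes passed, nearly all of them higher (6614 higher, 86 lower), and the median of all genes lay at 0.52 in log2, so 4 of 10 members is a share near the background. Rescaled, 4.68% of genes passed and none of the 10 members did, with 2 at an unadjusted limma p under 0.05, beside 27.6% of all genes. Vdr stood at 15.05, 8.73 and 10.1 TPM in floxed controls and 18.7, 18.7 and 25.3 in knockouts, with no overlap, a log2 change of 0.85 (SE 0.21, limma adjusted p = 0.00932), and of 0.24 (adjusted p = 0.374) rescaled. Thra had 0.62 (adjusted p = 0.0166) and -0.00 rescaled, Nr2c1 0.62 (0.0237) and 0.06, and Nr2c2 0.58 (0.0202) and -0.06. Without knockout 3 no member passed, and without knockout 2 only 1 did. Nr4a1 had -0.87 (SE 0.55, adjusted p = 0.19) and -1.51 (SE 0.60, 0.133) rescaled, Nr4a2 0.47 and -0.17, and Nr4a3 -0.03 and -0.58. Nr3c1 had 0.22 on deposited TPM and -0.39 (SE 0.13, adjusted p = 0.0834) rescaled, with levels of 13.4 to 15.6 TPM in floxed controls and 15.8 to 17.9 in knockouts. The median of the members was 0.48 beside 0.52 over all genes, and -0.12 beside -0.03 rescaled.

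**Figure D2:**
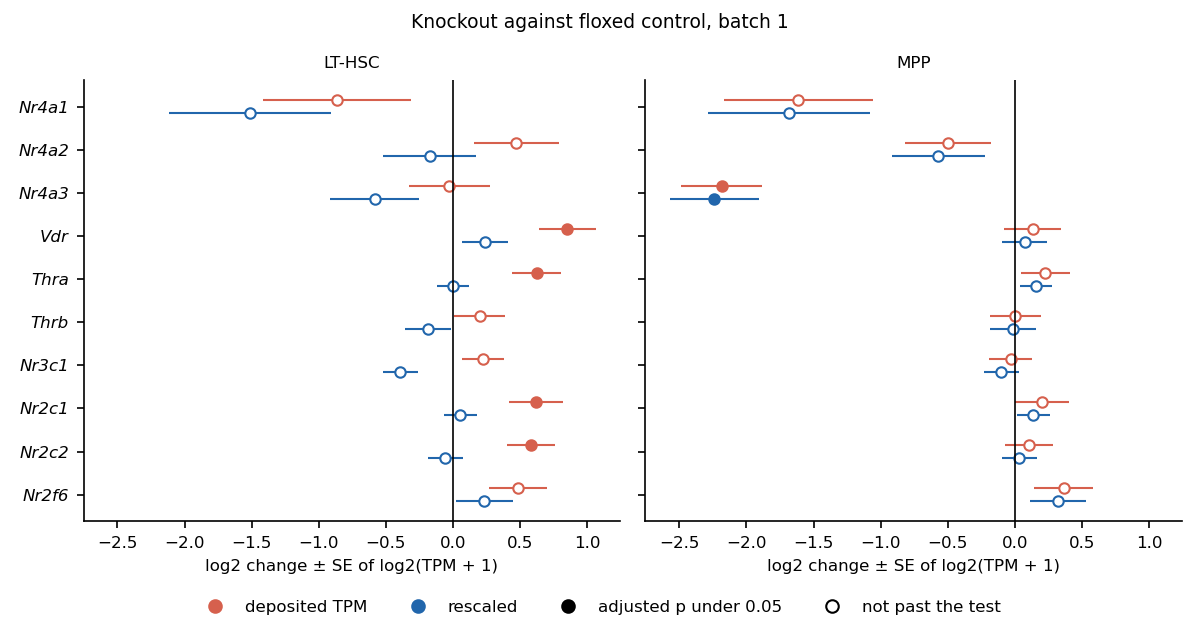
Log2 change of the 10 members with its standard error (bars), knockout against floxed control, in LT-HSC (left) and MPP (right), on deposited TPM (red) and rescaled (blue), with filled points past the adjusted p of 0.05. In MPP Nr4a3 is filled on both scales, at -2.18 and -2.24, and in LT-HSC the 4 filled red points have open blue partners between -0.06 and 0.24.

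Targets of these receptors were described beside them in LT-HSC. Klf9, which thyroid hormone and glucocorticoid receptors induce, went against the shift of all genes. It stood at 15.4 TPM in floxed controls and 4.86 in knockouts, a log2 change of -1.45 (SE 0.23, limma adjusted p = 0.00244, rescaled -2.02 with 5.7e-04). Of 19 glucocorticoid receptor chaperones and targets, 3 rose and 2 fell, with Cebpd up by 1.14 and Nfkbia at -0.69 (adjusted p = 0.00949 and 0.0164), and rescaled 2 fell, Klf9 and Nfkbia (-1.32, 0.00188). Of 8 vitamin D genes tested, 3 rose: Camp, an antimicrobial peptide gene that is also on the neutrophil list (2.53, from 2.89 to 30.8 TPM, adjusted p = 0.0139, rescaled 0.0984), Thbd (0.70) and Cyp2r1 (0.50), which encodes a hydroxylase that activates vitamin D. None passed rescaled (2 at an unadjusted limma p under 0.05). Of 8 thyroid hormone genes, 2 rose, Dio2, the activating deiodinase (0.65, rescaled 0.17 with adjusted p = 0.601), and Slc7a8 (0.72, rescaled 0.16 with 0.617), and Klf9 fell. Both rises were thus lost on rescaling. Of the 25 immediate early and CREB genes 4 rose, among them the CREB coactivators Crtc3 (0.87) and Crtc2 (0.92) and Creb1 itself (0.53). Rescaled, 0 of the 25 rose and 3 fell, with a median of -0.54. Of 18 corepressors and coactivators 7 rose, such as Tbl1xr1 (0.58) and Kdm1a (0.61), and none rescaled (7 unadjusted). Of 10 other orphan and clock receptors 7 rose, led by Rora (0.84), Nr6a1 (1.33) and Esr1 (0.84), and none rescaled (2 unadjusted). Of 8 RXR partners Rarg (0.82) and Ppard (0.67) rose, neither of them rescaled (0.23 and 0.10, adjusted p = 0.561 and 0.787), and Rarb fell by 0.62 (rescaled -1.06, adjusted p = 0.0311). Sums of neutrophil markers were 6.20 to 9.64 TPM in floxed control and 10.9 to 162.6 TPM in knockout LT-HSC, those of monocytes 14.1 to 21.3 and 40.7 to 71.1 TPM, and those of mast cells, basophils and eosinophils 3.75 to 10.9 and 18.0 to 47.3 TPM, while erythroid markers were 81.9 to 273.0 and 44.9 to 109.4 TPM. On deposited TPM, 45.2% of all genes passed in this comparison. Of the tested markers 1 of 4, 3 of 4 and 2 of 5 rose and 4 of 6 erythroid ones fell. Of those that rose, Cd68 (limma adjusted p = 0.0302) and Prg2 (0.00948) also passed rescaled. Camp (0.0984), Ly6c2 (0.0528), Ccr2 (0.14) and Fcer1a (0.081) did not. The erythroid markers Car1, Hba-a1 and Klf1 still fell rescaled (0.0217, 0.014 and 0.0234). Markers of LT-HSC summed to 220.2 to 387.9 and 487.9 to 620.5 TPM, those of endothelial and stromal cells to 11.3 to 18.5 and 27.1 to 36.4 TPM, and those of B cells to 7.28 to 10.8 and 13.0 to 18.7 TPM, with 6 of 6, 3 of 3 and 1 of 3 tested ones higher. Rescaled, 2 (Vwf and Slamf1), 1 (Lepr) and 0 of these passed. Adgre1 and Epx were at 0 in all floxed control LT-HSC. Their part in these results, Camp included, was not tested.

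Whether the knockout effect differs between MPP and LT-HSC was tested as an interaction. For Nr4a3 the difference was -2.16 (SE 0.43, limma adjusted p = 0.0656), so it did not pass, and rescaled it was -1.65 (SE 0.47, 0.266). With the animal pool as a block, since sample names tie each MPP library to an LT-HSC library, it passed on deposited TPM (SE 0.27, adjusted p = 0.0281) and not rescaled (0.0685). None of the other 9 members passed on either scale, with or without the block. Without the block 3 members were at an unadjusted p under 0.05 (Nr4a3, Nr4a2 and Vdr), beside 26.2% of all genes, a share near theirs. Past the adjusted threshold were 0.0809% of all genes (0.027% rescaled). The adjusted p of Nr4a3 ran from 0.0271 to 0.184 when 1 library was left out, and it was under 0.05 without LT-HSC floxed control 1, LT-HSC knockout 1 or MPP knockout 1.

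MPP were compared with LT-HSC within each genotype to see which receptors differ between progenitors and stem cells. These comparisons use the same LT-HSC and MPP libraries as those of knockout against floxed control. Vdr, which binds the active form of vitamin D, was higher in LT-HSC in both genotypes. It stood at 4.42, 3.68 and 3.87 TPM in floxed control MPP and 4.52, 3.67 and 5.31 in knockout MPP, below all 15 LT-HSC libraries (7.105 to 25.3 TPM). The log2 change from LT-HSC to MPP was -1.27 in floxed controls (SE 0.21, limma adjusted p = 6.3e-04, rescaled -1.55 with 3.1e-05) and -1.99 in knockouts (SE 0.21, 8.4e-06, rescaled -1.72 with 1.3e-05). Thrb, the thyroid receptor of liver, pituitary and inner ear, was scarce everywhere and scarcer in MPP. It stood at 1.92, 1.19 and 1.02 TPM in floxed control LT-HSC and 0.457, 0.256 and 0.323 in their MPP, and at 1.76, 1.66 and 1.66 and 0.319, 0.222 and 0.512 TPM in knockouts, with no overlap. Its changes were -0.80 (SE 0.19, adjusted p = 0.00789, rescaled -0.99 with 0.00115) and -1.001 (SE 0.19, 0.00142, rescaled -0.82 with 0.00418), on a scale that understates changes near 1 TPM. Both calls held without any 1 library on both scales. Thrb passed the filter of this fit through LT-HSC libraries alone, since all 6 MPP libraries lay at or under 0.512 TPM. The calls are thus of a gene kept for its level in LT-HSC.

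Thra, the more widespread thyroid receptor, stood at 19.2, 13.2 and 15.9 TPM in floxed control LT-HSC and 13.4, 12.7 and 11.7 in their MPP, groups that overlap at their ends, with a log2 change of -0.32 (SE 0.18, limma adjusted p = 0.219) that passed only rescaled (-0.61, SE 0.12, 0.0028). In knockouts it was at 21.6, 25.6 and 28.5 TPM in LT-HSC and 14.1, 13.8 and 17.0 in MPP, without overlap and with a difference of -0.72 (SE 0.18, adjusted p = 0.0111, rescaled -0.45 with 0.0168). The call was lost in 3 of 6 fits that left out 1 library, with an adjusted p of up to 0.0699 (without LT-HSC knockout 3). Thra overlaps Nr1d1, which encodes the clock repressor REV-ERBa, by 1075 bp on the opposite strand, and no strand setting is stated, so reads of the pair may be shared. Nr1d1 stood at 1.46 to 11.7 TPM over the 15 LT-HSC libraries.

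The NR4A genes did not move together between the cell types. Nr4a3 was higher in MPP of floxed controls, by 1.69 (SE 0.30, limma adjusted p = 0.00117, rescaled 1.43 with 0.00762), and in knockouts its difference was -0.47 (SE 0.30, adjusted p = 0.319, rescaled -0.23). Nr4a2 was lower in MPP of knockouts, at -1.88 (SE 0.32, adjusted p = 5.7e-04, rescaled -1.60 with 0.00485). In floxed controls it was at -0.91 (SE 0.32, adjusted p = 0.055), and it passed rescaled (-1.21, 0.0229) and with the animal pool as a block (0.0131). Nr4a1 was at -0.59 in floxed controls (adjusted p = 0.458) and -1.34 (SE 0.55, 0.108) in knockouts. With the pool as a block it passed in knockouts (adjusted p = 0.00293, rescaled 0.00502) and in floxed controls only rescaled (-0.89, 0.0114). Nr2f6 was at 0.58 (SE 0.22, adjusted p = 0.0702) and 0.46 (0.163), and the block made it pass in floxed controls (0.0447) and, rescaled, in knockouts (0.0411). Nr3c1, Nr2c1 and Nr2c2 passed in neither genotype, with log2 changes from -0.15 to 0.37. In all, 1 member was higher and 2 lower in MPP of floxed controls (5 with the pool as a block), where 21.2% of genes passed (23.9% rescaled), and 4 were lower in MPP of knockouts, where 19.5% passed (22.9% rescaled). The members' medians were -0.06 and -0.59, beside 0.26 and -0.20 over all genes.

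**Figure D3:**
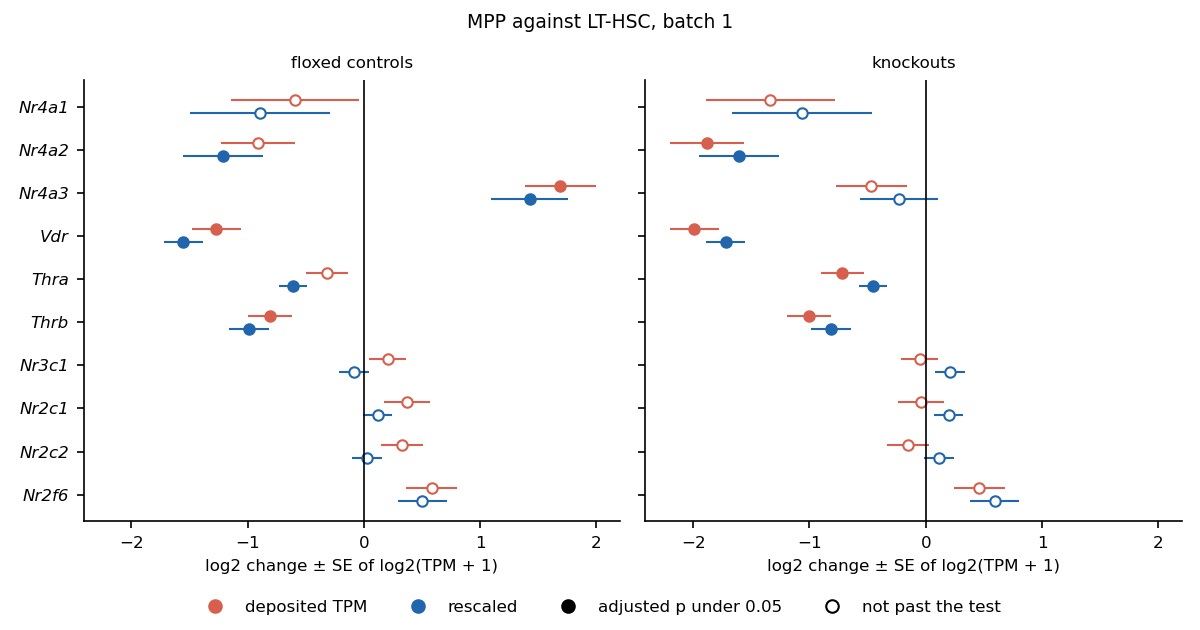
Log2 change of the 10 members with its standard error (bars), MPP against LT-HSC, in floxed controls (left) and knockouts (right), on deposited TPM (red) and rescaled (blue), with filled points past the adjusted p of 0.05. Vdr and Thrb are filled and below 0 on both scales in both genotypes, Nr4a3 is filled at 1.69 and 1.43 in floxed controls and open in knockouts, and Nr4a2 is filled on both scales in knockouts only.

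Genes that handle the hormones or answer them were counted beside all genes, of which 21.2% passed in floxed controls and 19.5% in knockouts, and the counts below are to be read against these shares. Klf9 was lower in MPP, with log2 changes of -2.26 in floxed controls and -1.67 in knockouts (limma adjusted p = 4.7e-06 and 7.9e-05). Counting Klf9, 2 of 8 thyroid hormone genes fell in floxed controls and 3 in knockouts, Dio2 (-0.76) among the latter. Spp1, the osteopontin gene that vitamin D induces in bone, was higher in MPP by 1.79 and 2.30 (adjusted p = 6.2e-04 and 5.4e-05), opposite to Vdr itself, and 1 of 8 vitamin D genes rose in each genotype, while Cyp2r1 (-0.74) and Thbd (-0.90) fell in knockouts. Tgm2, a transglutaminase gene that glucocorticoids and retinoids can induce, was lower, with changes of -4.29 and -4.11 (adjusted p = 8.4e-09 and 1.3e-08), one of 4 and 5 glucocorticoid genes that fell. In floxed controls 5 of the 25 immediate early and CREB genes rose in MPP and 1 fell. Ier3 (1.12), the phosphatase gene Dusp2 (1.12) and Btg2 (0.98) were among those that rose. In knockouts 0 rose and 3 fell: Klf4 (-1.25), Fosl2 (-1.63) and Per1 (-0.72). Among other orphan receptors Rora (-1.25 and -2.21) and the mineralocorticoid receptor gene Nr3c2 (-1.33 and -2.12) fell in both genotypes. Among RXR partners Rarb (-1.56 and -0.82) and Rarg (-0.82 and -1.32) fell in both, Rara rose in floxed controls (0.89) and Nr1h3 fell in knockouts (-0.91). Among 18 corepressors and coactivators Ncoa3 (0.63) rose in floxed controls and 3 fell in knockouts, among them Ncoa1 (-0.67) and Nrip1 (-0.62). Rescaled, Ncoa3 in floxed controls and Fosl2, Per1, Ncoa1, Nrip1, Dio2 and Rarb in knockouts did not pass. The counts also turned with the scale, since rescaled 5 glucocorticoid genes rose and 2 fell in MPP of knockouts, 2 thyroid hormone genes rose and 2 fell there, and 3 corepressors and coactivators fell and none rose in floxed controls. Markers of T and NK cells summed to 8.30 to 24.8 TPM in floxed control LT-HSC and 40.5 to 103.0 in their MPP, those of B cells to 7.28 to 10.8 and 15.3 to 17.8 TPM, those of monocytes to 14.1 to 21.3 and 77.5 to 105.5 TPM, those of mast cells, basophils and eosinophils to 3.75 to 10.9 and 29.6 to 70.5 TPM, and erythroid ones to 81.9 to 273.0 and 27.9 to 35.7 TPM. Past the limma test were 3 higher and 1 lower of 4 tested T and NK markers (the lower one Klrb1c, -1.23), 1 of 3 B cell, 4 of 4 monocyte and 3 of 5 mast cell, basophil and eosinophil markers higher, and 6 of 6 erythroid markers lower. Adgre1 and Epx were at 0 in all 3 floxed control LT-HSC. The part of these cells in the results was not tested.

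The glucocorticoid receptor gene Nr3c1 lay between 11.6 and 23.4 TPM in all 21 libraries, with group means from 14.5 ± 1.08 (floxed control LT-HSC) to 20.99 ± 2.35 TPM (Cre control LT-HSC, SD, n = 3 each). Nr2c2 had means from 23.5 ± 6.11 (labelled knockout) to 42.6 ± 8.01 TPM (knockout LT-HSC), with floxed control MPP at 35.1 ± 1.06 TPM. Nr2c1, its close relative, was lower, from 4.42 ± 1.52 to 8.00 ± 1.44 TPM in the same pair of groups. In order of mean TPM Vdr ran from floxed control MPP (3.99 ± 0.384) and knockout MPP (4.50 ± 0.817), which overlap, through labelled knockouts (10.4 ± 5.07), floxed control LT-HSC (11.3 ± 3.33), Cre controls (13.9 ± 0.990) and the Myc allele group (15.06 ± 5.45), which overlap each other, to knockout LT-HSC (20.9 ± 3.82, SD, n = 3 each), which overlaps the Myc allele group. Thrb lay lowest in MPP (0.345 ± 0.102 and 0.351 ± 0.148 TPM) and had overlapping ranges among the LT-HSC groups except for Cre controls (2.29 to 2.55 TPM), which lay above floxed controls and knockouts of batch 1. Nr2f6 was near 1 TPM, from 0.220 ± 0.139 TPM in labelled knockouts to 1.96 ± 0.445 TPM in knockout MPP.

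**Figure D4:**
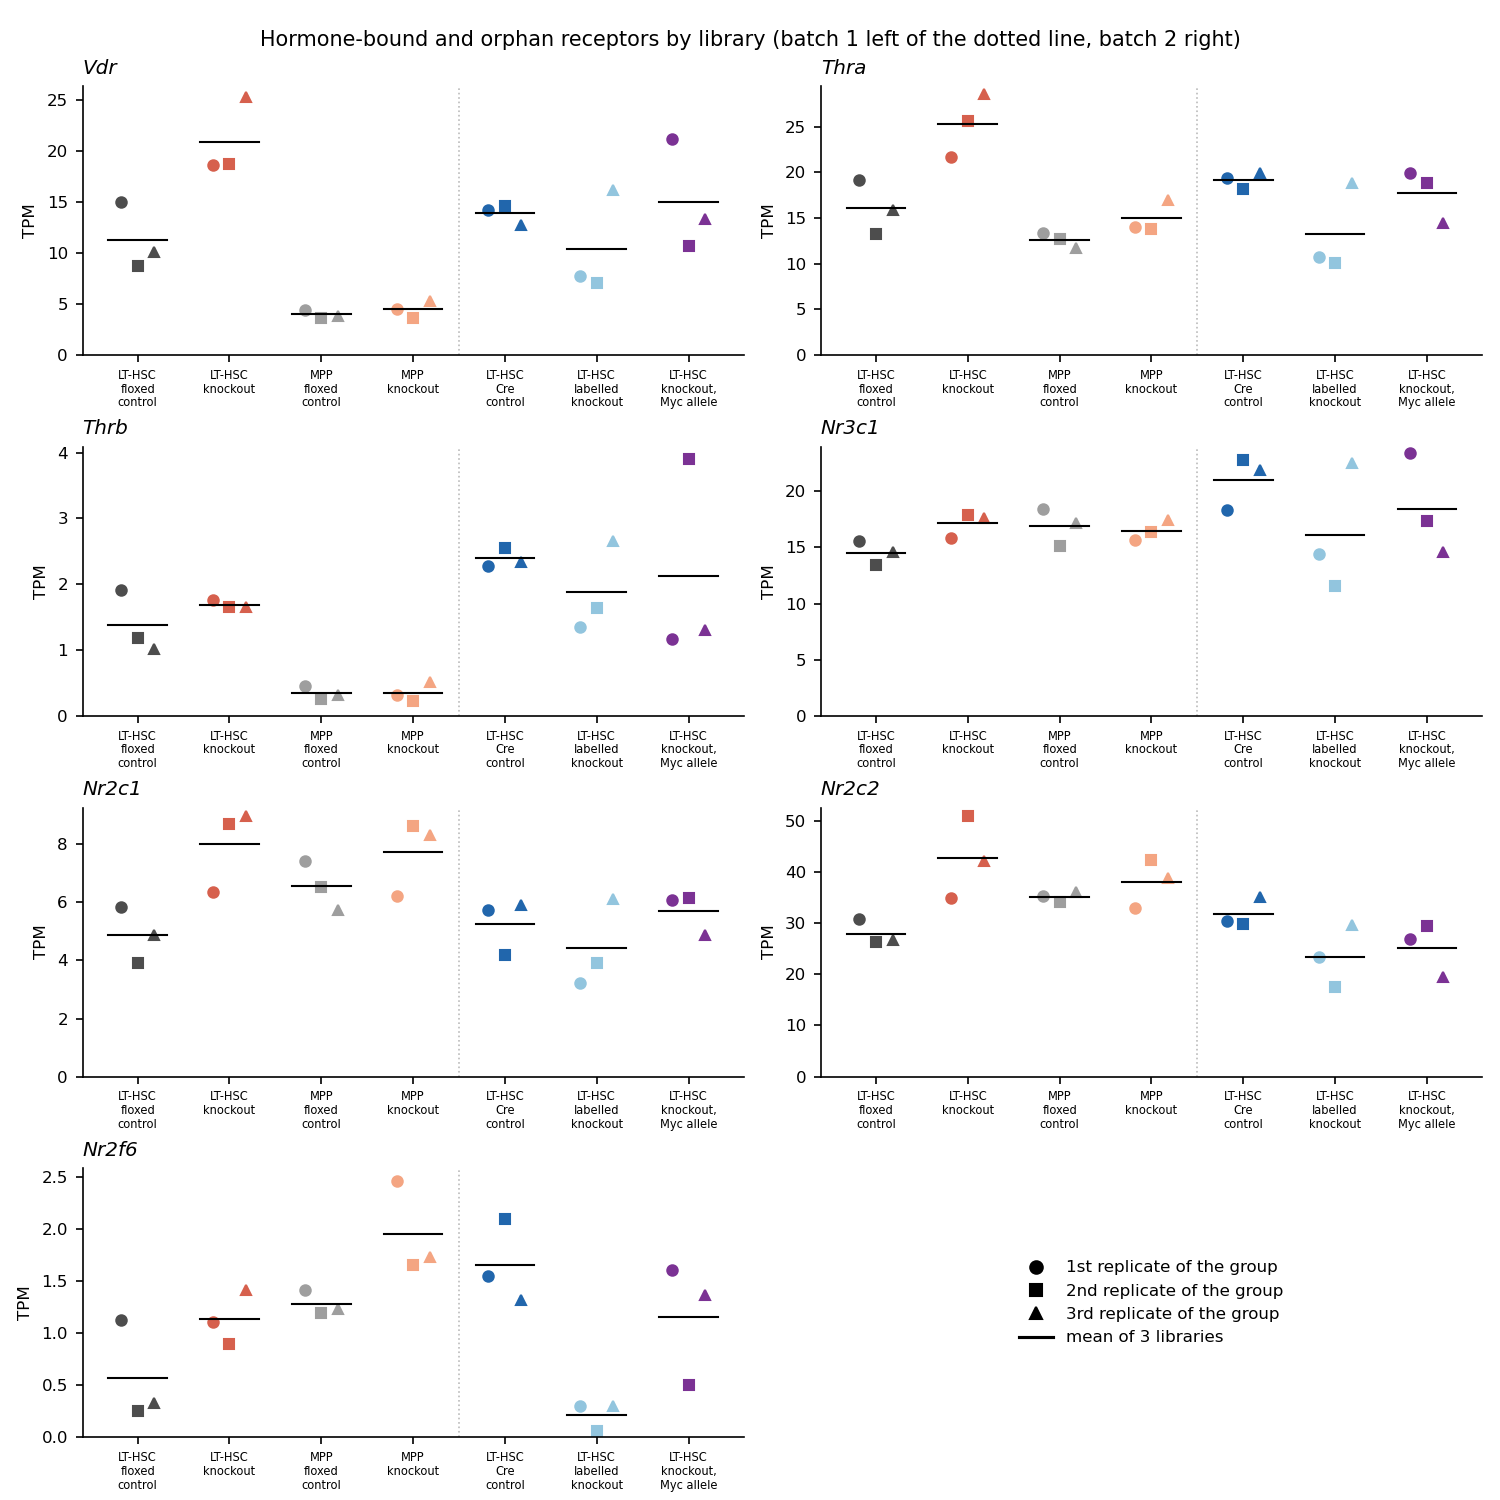
TPM of the other 7 members by library on axes from 0, with points, lines and batches as in the plot of the Nr4a genes. Vdr and Thrb are lower in all 6 MPP libraries (at most 5.31 and 0.512 TPM) than in any LT-HSC library (at least 7.105 and 1.02 TPM), and Nr2f6 is lowest in the 3 labelled knockouts (0.0597 to 0.300 TPM).

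Within batch 2, labelled knockouts were compared with Cre controls. No member passed (limma, 1 of 10 at an unadjusted p under 0.05), and 0.0744% of 13445 genes did (0.0595% rescaled). Unadjusted, 4.58% of all genes were under 0.05. The member under 0.05 unadjusted was Nr2f6, at 1.55, 2.10 and 1.32 TPM in Cre controls and 0.299, 0.0597 and 0.300 in labelled knockouts. These groups did not overlap, with a log2 change of -1.12 (SE 0.35, limma adjusted p = 0.705). Nr2f6 passed the filter of this fit through Cre controls and the Myc allele group alone. Nr4a3 was at 0.86 (SE 0.83), Nr4a2 at 0.54 (SE 0.56), Vdr at -0.48 (SE 0.35) and Thra at -0.55 (SE 0.29), none past the test. Over both batches, knockouts and labelled knockouts together against their controls with batch as a term, 0 of 10 members passed (1 at an unadjusted limma p under 0.05, Nr4a2 at 0.51, SE 0.22, adjusted p = 0.269), beside 0.421% of 14492 genes, and 0% rescaled, where 1 member was under 0.05 unadjusted. Within the batches Vdr had 0.85 and -0.48, Thra 0.62 and -0.55, and Nr2c2 0.58 and -0.45. Nr4a1 had -0.87 and -0.37, and Nr4a2 0.47 and 0.54.

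Whether the difference from controls was the same in both batches was tested too, with the limit that the batch 2 arm is of labelled knockouts, not shown to be knockouts by their junction shares. Nr2f6 passed, with -1.60 (SE 0.38, limma adjusted p = 0.045), and not rescaled (-1.29, SE 0.33, 0.221). It was at 1.12, 0.249 and 0.331 TPM in floxed control LT-HSC and 1.11, 0.903 and 1.41 in knockouts of batch 1. The call was lost in 9 of 12 fits without 1 library, with an adjusted p of up to 0.141 (without LT-HSC knockout 3), and passed without LT-HSC floxed control 1, LT-HSC knockout 1 or labelled knockout 6. Of all genes 1.27% passed (0.124% rescaled) and their median was -0.73. Vdr (-1.33, adjusted p = 0.0631), Thra (-1.18, 0.0624) and Nr2c2 (-1.03, 0.0674) did not pass. In other orphan receptors Nr3c2 (-2.09) and Nr6a1 (-1.71, adjusted p = 0.0312 each) did, and neither rescaled (0.304 and 0.279).

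The Myc allele group was compared with labelled knockouts and with Cre controls, comparisons that share the group itself. No member passed in either (limma, 2 and 1 of 10 at an unadjusted p under 0.05). All-gene shares were 0% (547 of 13445 genes under 0.05 unadjusted, and 0% rescaled) and 0.104% (0.0818% rescaled). Unadjusted, 4.07% and 9.42% of all genes were under 0.05. Nr4a2 was at 1.22 (SE 0.56, adjusted p = 1) against labelled knockouts and at 1.76 (SE 0.56, 0.503) against Cre controls. These values rest in part on Myc allele replicate 3, at 284, 233 and 27.8 TPM for Nr4a1, Nr4a2 and Nr4a3. Without it the changes against Cre controls were -0.59 for Nr4a1 (0.72 with it), 0.93 for Nr4a2 and -0.47 for Nr4a3 (0.91 with it), none past the test. Against labelled knockouts, leaving it out gave 0.39 for Nr4a2 and -0.22 for Nr4a1 (1.09 with it). Without Myc allele replicate 1, Nr4a2 passed against Cre controls (2.44, adjusted p = 0.0277). Vdr stood at 21.2, 10.7 and 13.3 TPM in the Myc allele group, overlapping both other groups of the batch, and Nr2f6 at 1.61, 0.503 and 1.37 TPM, above the labelled knockouts and overlapping the Cre controls (0.79, SE 0.35, adjusted p = 1 against labelled knockouts).

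Splicing of the members was read from percent spliced in (PSI), the share of reads on a junction against its competitors. The table held 38 events in 7 of the 10 genes: 12 in Nr4a2, 8 in Nr2c2, 7 in Nr4a3, 5 in Nr4a1, 4 in Thra and 1 each in Nr2c1 and Nr3c1. All 5 in Nr4a1, 10 in Nr4a2 and 6 in Nr4a3 were of the intron retention type. Paired events that examine the spliced and the retained junction of 1 intron share reads and are not independent. No event of a member passed in any of 8 comparisons (limma, adjusted p under 0.05 with PSI apart by 0.1 or more). In batch 1, 24 member events had a value in all 12 libraries, of which 9, 1, 0, 5 and 3 were at an unadjusted p under 0.05 for knockout LT-HSC, knockout MPP, MPP against LT-HSC of floxed controls, the same of knockouts, and the interaction. The shares of all 39715 events that passed were 0.166%, 0.199%, 0.486%, 0.305% and 0.0755%. In batch 2, 11 member events were tested, with 1, 0 and 1 under 0.05 for labelled knockouts against Cre controls, Myc allele against labelled knockouts and Myc allele against Cre controls, and 0.0389%, 0.0141% and 0.0318% of 28309 events passed. These all-event shares are at the adjusted threshold with the PSI difference. The share of all events at an unadjusted p under 0.05 was not taken. The unadjusted member counts thus have no like background, and whether they exceed it cannot be told.

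In Nr4a1 the 3 introns with events had lower spliced shares in knockout LT-HSC 2 and 3. For the intron at chr15:101271865-101272153 (mm10, junction ends) the spliced share was 0.74, 0.765 and 0.522 in floxed control LT-HSC and 0.65, 0.218 and 0.3 in knockouts, ranges that overlap, a difference of -0.286 (SE 0.111, limma unadjusted p = 0.0282, adjusted 0.384). For the next intron, at chr15:101272304-101272718, the shares were 0.906, 0.998 and 0.796 in floxed control LT-HSC and 0.806, 0.562 and 0.435 in knockouts, a difference of -0.299 (SE 0.109, adjusted p = 0.358), and for the last, at chr15:101272920-101273015, 0.887, 0.841 and 0.781 and 0.811, 0.587 and 0.446 (-0.222, SE 0.0961, adjusted p = 0.427). In MPP the first intron had spliced shares of 0.759, 0.696 and 0.685 in floxed controls and 0.695, 0.485 and 0.512 in knockouts. Nr4a2 had its lowest p at the junction into the intron at exon 7 of the event names, whose share was 0.153, 0 and 0.233 in floxed control LT-HSC and 0.388, 0.591 and 0.692 in knockouts without overlap (0.428, SE 0.124, unadjusted p = 0.00648, adjusted 0.258). In the Thra intron at chr11:98763787-98764278, the spliced share was 0.972, 0.962 and 1 in floxed control and 1, 0.618 and 0.729 in knockout LT-HSC. Read numbers behind a share are unknown, so no counting interval is given.

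**Figure D5:**
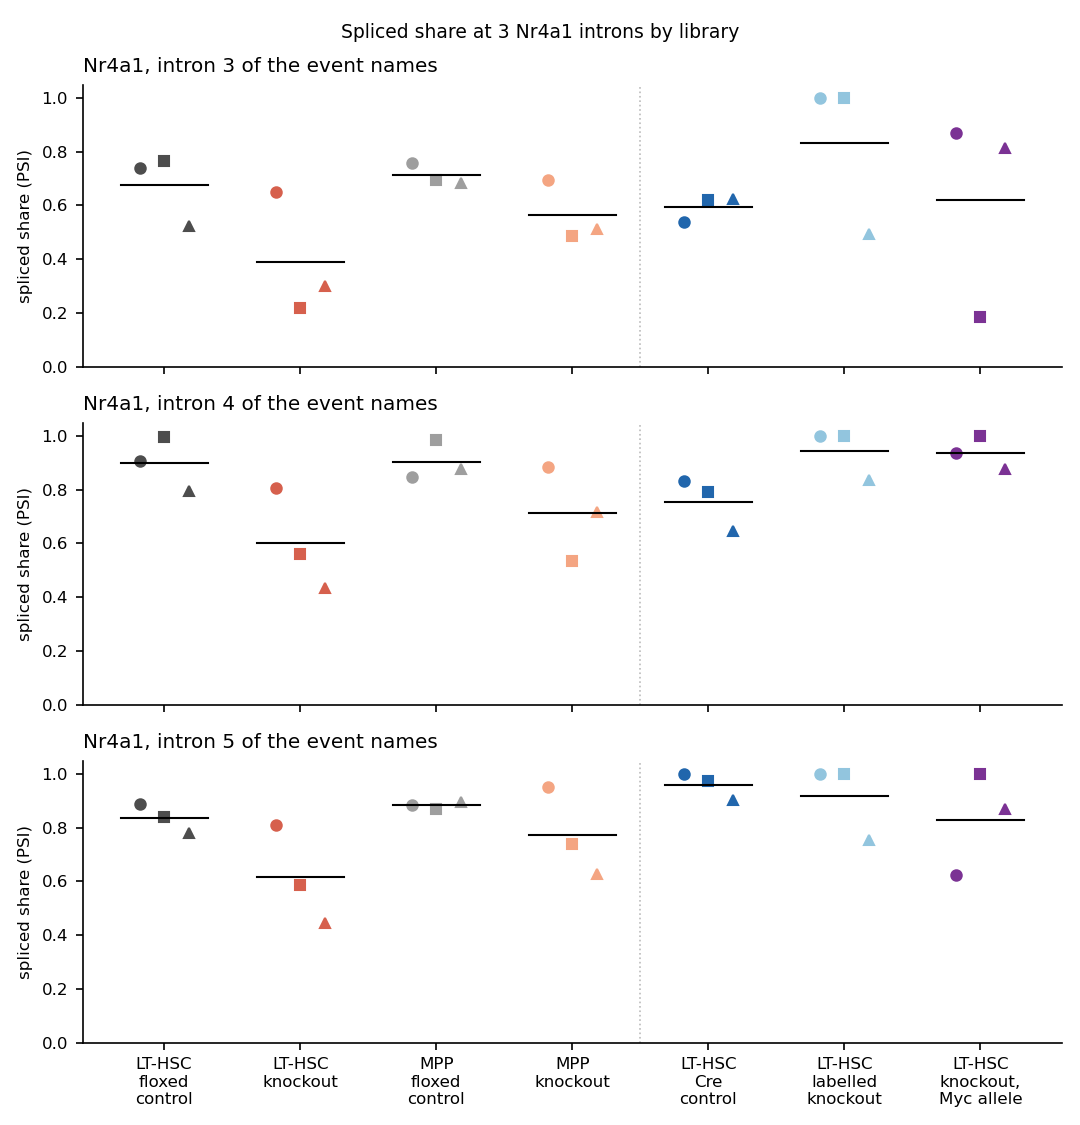
Share of junction reads that are spliced (PSI, 0 to 1) at 3 introns of Nr4a1, 1 point a library, with points, lines and batches as in the plot of the Nr4a genes. Knockout LT-HSC 2 and 3 lie below the 3 floxed control LT-HSC at each intron, knockout LT-HSC 1 lies within their range, and labelled knockouts 4 and 5 are at 1 at the first intron.

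The genes whose log2(TPM + 1) followed each of the 8 members with a mean of at least 5 TPM most closely over the 21 libraries were listed as a description, with Pearson's r over 9383 genes. The libraries share batch, cell type and the scale of their TPM. Nr4a1 was followed by Maff (r = 0.931), Cfap20 and Ctla2b, Nr4a2 by Fgfr1 (0.954), Zfp57 and Fosl2 (0.848), and Nr4a3 by Napa (0.914), Chka and Wsb1. Vdr was followed by Ehd3 (0.971), Procr (0.97), the stem cell surface receptor EPCR, and Syde1. Thra was followed by Tmx4 (0.919), Tlr4 and Zdhhc17, Nr2c1 by Pcgf3 (0.935), Sec24b and Galnt11, Nr2c2 by Lipe (0.932), Rai1 and Ythdf3, and Nr3c1 by Cep170 (0.943), Senp6 and Prpf4b. Thrb and Nr2f6 were below 5 TPM on average.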

How the data were processed

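RNA of 21 libraries was grouped by the labels. The expression values are TPM that the authors deposited per Ensembl gene, made with kallisto on mm10 per the submitters' processing notes, whose version and transcript set no source used here gives. Splicing values are fractions (PSI) that the authors deposited, from STAR 2.6 on mm10 per the same notes, without a stated event caller or read minimum. That table was already selected (lowest deposited spread 0.15). Per the labels' protocols, 5 ng of RNA per library was amplified. TPM keep no depth, so counting error is unknown.

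A gene entered a fit if 3 or more of its libraries reached 1 TPM, and limma 3.58.1 (R 4.3.3, variance trend) was run on log2(TPM + 1), which understates changes of low genes. P-values were adjusted over all genes by Benjamini-Hochberg, and a gene rose or fell where the adjusted p was under 0.05. Batch 1 (12 libraries), batch 2 (9) and the LT-HSC of both (12) were fitted separately. PSI were tested with limma on events present in every library of a fit. The test was tried on simulated data. The p-values measure the spread between pools, which may be technical. Rescaling divided libraries by median-of-ratios size factors. The tables held 0 columns of other samples. Of the identifiers 27458 (94.73%) had a symbol. RefSeq promoter windows of 8 members were searched, of which 1 had 2. Thra had no entry. Member windows on chromosome 18 were left out, and with them any of Nr3c1. Figures used Python 3.11.15 and matplotlib 3.10.9.

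MPP and LT-HSC libraries carry the same pool name in the sample descriptions (WT1 to WT3, KO1, KO4 and KO5), which pairs them. Same-pool deviations from the group means correlated across genes at 0.663, 0.226 and 0.293 in knockouts and at 0.12, 0.065 and 0.165 in floxed controls. The highest correlations with another pool were -0.425, 0.218 and 0.285 in knockouts and -0.016, 0.126 and 0.009 in floxed controls. Replicate 1 of the knockouts stood clearly apart, whereas replicates 2 and 3 barely did, and floxed control 2 lay under its other pool. The pairing used in the pool block thus rests mainly on the names. The members and gene lists were chosen with earlier results of these data known. Named genes are the 10 members, the 3 genes most like each member with a mean of at least 5 TPM, up to 3 genes of each list with the smallest p among those past the test, and Rxra, Rxrb and Nr1d1 as checks. Results of some list genes are not reported here. Alternatives were another scaling, pseudocount or filter, the compared groups alone, a replicate block, and leaving out each library.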

Additional observations from a re-analysis of the deposited data

Results flagged for a closer look

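The difference between Cre-positive Rxrabfl/fl LT-HSC and their controls in Nr2f6 was not the same in the batches by the test of the interaction, at -1.6 on the log2(TPM + 1) scale (SE 0.38, limma with Benjamini-Hochberg adjusted p = 0.045). It was higher in batch 1 knockouts than in floxed controls on average (1.14 and 0.568 TPM) and lower in labelled knockouts than in Cre controls (0.220 and 1.66 TPM), all near 1 TPM. The batch 2 arm is of labelled knockouts, whose Rxra exon-skipping shares of 0, 0.0127 and 0 go against their label. Their Rxrb totals (10.6 to 12.8 TPM) lay below those of Cre controls (14.5 to 16.0 TPM), in the direction of the label. With these unlike checks the arm is not shown to measure a knockout effect. Rescaled, the difference did not pass (adjusted p = 0.221).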

How the results depend on the processing

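Counts of members past the test moved with the scale in LT-HSC of batch 1. There 4 passed on deposited TPM, 0 with median-of-ratios or quantile scaling, 1 with the compared groups alone, and 1 with rescaling and a replicate block together (Nr4a1). Nr4a1 also passed with the replicate block on deposited TPM (-0.87, SE 0.268, limma adjusted p = 0.0211). Thra reversed to -0.001025 and Nr2c2 to -0.05635 on rescaling, with or without the block, values near 0. In MPP against LT-HSC of floxed controls 3 became 5 with either scaling or with the replicate block, and 6 with rescaling and block. For the difference between batches 1 became 0 with either scaling, with a pseudocount of 0.1, without a filter, or with rescaling and block, and 2 with a filter at a mean of 5 TPM, which leaves out Nr2f6. The cause was not tested.

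For knockout against floxed control MPP, 1 became 2 with the replicate block, rescaled or not, as Nr4a1 passed (adjusted p = 0.00839). Knockout and control libraries share replicate numbers only, and deviations of same-numbered libraries correlated at 0.338, 0.098 and -0.107 in LT-HSC and -0.001, 0.125 and 0.142 in MPP, so this block rests on no stated pairing. For the interaction of cell type and knockout 0 became 1 with the block (Nr4a3). The block moved no other count by over 1.5 times. Myc allele libraries share no numbers with the other groups, so they have no such fit.

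Leaving out 1 library gave 0 to 5 members in LT-HSC of batch 1, 1 in MPP, 3 to 4 in MPP against LT-HSC of either genotype, 0 to 1 for the interaction of cell type, 0 to 1 for Myc allele against Cre controls, 0 to 6 for the difference between batches and 0 in the other comparisons. For splicing events it gave 0 to 1 in LT-HSC of batch 1 and in MPP against LT-HSC of knockouts, each time 1 without LT-HSC knockout 1, and 0 elsewhere. A difference of 0.2 in place of 0.1 changed no splicing count. Of the single values of members under all alternatives 1404 stayed on their side of the threshold (105 of these turned in sign, none of them past the test in either fit), 36 lost the call, 39 gained it and 4 called values reversed. The rescaled fits without 1 library and the block over both batches were chosen after seeing the data. Unknown depth limits what can be said of Nr2f6, Thrb and the PSI.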
